A study of Mus musculus with 8 samples.

Results

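Histone acetyltransferases are the enzymes that add acetyl groups to lysines of the histone tails. A set of 10 of their genes was followed through RNA-seq and ChIP-seq data on DMRT6, a DNA-binding protein of mouse male germ cells. The 10 genes were Myst3, Myst4, Myst1, Myst2, Kat5, Kat2a, Kat2b, Ep300, Crebbp and Hat1, named as in the deposited expression table, and all 10 were found among its 22744 genes. They were chosen by name as a protein family with the score of the peak at Myst3 already known, so the members were in part selected on the peak scores. The peak positions and scores below are a description without a test. The expression data came from whole testes at postnatal day 8 (P8), with 3 libraries from Dmrt6 null animals and 3 from wild-type animals, both of the strain background C57BL/6. The binding data came from adult wild-type testis of C57BL/6 and mixed background, with 1 library made with rabbit polyclonal antibodies that bind DMRT6 and 1 input library. The labels do not describe the null allele and do not say whether a library holds 1 animal or several. In whole testis, fewer cells of a type and less RNA per cell cannot be told apart.

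Acetylation of histone tails loosens chromatin and is read by bromodomain proteins, and histone deacetylases remove it. The MYST family, named after its founding members, includes Myst3 (also called Kat6a or MOZ) and its close relative Myst4 (Kat6b or MORF), both of which work with BRPF scaffold proteins. It also includes Myst1 (Kat8 or MOF), which acetylates histone H4, Myst2 (Kat7 or HBO1), linked to replication origins, and Kat5 (TIP60), an enzyme of transcription and DNA repair. Kat2a (GCN5) and Kat2b (PCAF) are the alternative catalytic subunits of the SAGA and ATAC coactivator complexes. Ep300 and Crebbp encode the related coactivators p300 and CBP, and Hat1 encodes the enzyme that acetylates newly made histone H4 before it is deposited. In the testis, histone acetylation is best known from spermatids, where a wave of it precedes the replacement of histones by protamines.

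DMRT6 peaks in adult testis lay close to the 5′ ends of 4 of the 10 genes: Myst3, Kat2a, Kat5 and Myst4. All coordinates are mm9. The 5′ end of a gene was read from the start, end and strand listed for it with the expression values, and the score is the authors' own value for the peak. With the peak middle within 1 kb the count was 4 of 10, where 16.0% of all tested genes had such a peak. Within 10 kb it was 5 of 10, against 31.2%, with Myst1 added. Since the set was drawn up with the Myst3 peak in view, nothing is read from these shares. The binding data had no replicates, since there was 1 ChIP library and 1 input library, and their depth is unknown.

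The peak at Myst3 was among the 7 of 14862 that shared the highest score of the list, 3100, where the median was 94.7. It covered 408 bp of chromosome 8, 23969741 to 23970148, and reached from 266 bp upstream to 141 bp downstream of the 5′ end of the gene (ENSMUSG00000031540, plus strand, 23970007 to 24053731). Of the 2724 peaks with their middle within 1 kb of any gene's 5′ end, 2 had that score, and the median of those peaks was 85.5. The next nearest peak, 15.6 kb upstream of Myst3 (23954296 to 23954592), scored 290. The 5′ end nearest to both was that of Myst3 itself. The next, that of Ap3m2, which encodes an adaptor protein subunit of vesicle traffic, lay 53818 bp from the middle of the higher-scoring peak.

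Myst4 (ENSMUSG00000021767, chromosome 14, 22319076 to 22491354, plus strand) carried 5 peaks over its body, none of them over its 5′ end. The first 3 stood in a row, with middles 478, 854 and 1179 bp downstream, and scored 56.3, 369 and 89.2. The middle one of these, 22319771 to 22320089, ranked 820th of the list. The other two lay far inside the gene, at 67.2 kb with a score of 112 and at 138.4 kb with 181, the second of them nearer to the 5′ end of Dupd1, a phosphatase gene. Both genes of the pair held a peak close to their start that scored above the list's median. It lay over the 5′ end in Myst3 and was the middle one of the first 3 inside Myst4. The score at Myst3 was known when the set was chosen, so nothing is read from this likeness.

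Kat2a (ENSMUSG00000020918, chromosome 11, 100566060 to 100573779, minus strand) had a peak over its 5′ end that scored 94.6, at the median of the list, and ran from 75 bp upstream to 89 bp downstream. The next 5′ end, that of Hspb9, lay 1392 bp from the middle of this peak. The other peaks within 50 kb of Kat2a scored 271 and 80.3 downstream and 233 and 112 upstream. All of those were nearer to other genes. Kat5 (ENSMUSG00000024926, chromosome 19, 5603017 to 5610050, minus strand) had 4 peaks within 10 kb. The one closest to its start, 97 to 249 bp inside the gene, scored 54.6, near the lowest score of 50.02, and a pair just over 2 kb upstream scored 155 and 82.6. The last, with a score of 81.85, lay 6813 bp inside and closer to the 5′ end of Rnaseh2c, which encodes a subunit of ribonuclease H2. Peaks with higher scores stood farther upstream of Kat5, at 40.3 kb with 405 and at 42.9 kb with 629. The 5′ ends nearest to them were those of the NF-kappa-B gene Rela and of Sipa1, which encodes a GTPase-activating protein.

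The other 6 genes had no peak within 1 kb. Myst1 (ENSMUSG00000030801) lies on chromosome 7 at 135056031 to 135069346 on the plus strand, and Myst2 (ENSMUSG00000038909) on chromosome 11 at 95135573 to 95171560 on the minus strand. Kat2b (ENSMUSG00000000708) lies on chromosome 17 at 53706186 to 53812045 on the plus strand, and Ep300 (ENSMUSG00000055024) on chromosome 15 at 81415781 to 81482507 on the plus strand. Crebbp (ENSMUSG00000022521) lies on chromosome 16 at 4084048 to 4213404 on the minus strand, and Hat1 (ENSMUSG00000027018) on chromosome 2 at 71227015 to 71279679 on the plus strand. The peak counted for Myst1 within 10 kb, 8473 bp upstream with a score of 64.1, lay 38 bp from the 5′ end of Bckdk, the kinase of branched-chain keto acid dehydrogenase. The nearest peak was 11.9 kb upstream of Kat2b with a score of 80.4 and 23970 bp upstream of Ep300 with 462. That peak at Ep300 had the second highest score of those whose nearest 5′ end was a member's, after the one at Myst3. Crebbp had 1 peak 16.9 kb upstream, closer to the predicted gene Gm5766, and 1 inside the gene at 18.2 kb, scoring 101 and 81.2. The nearest peak to Hat1 was 25.7 kb upstream, and the nearest to Myst2 was 50.9 kb away. In all, 26 peaks lay within 50 kb of a member's 5′ end, and for 14 of them another gene's 5′ end was nearer.

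**Figure D1:**
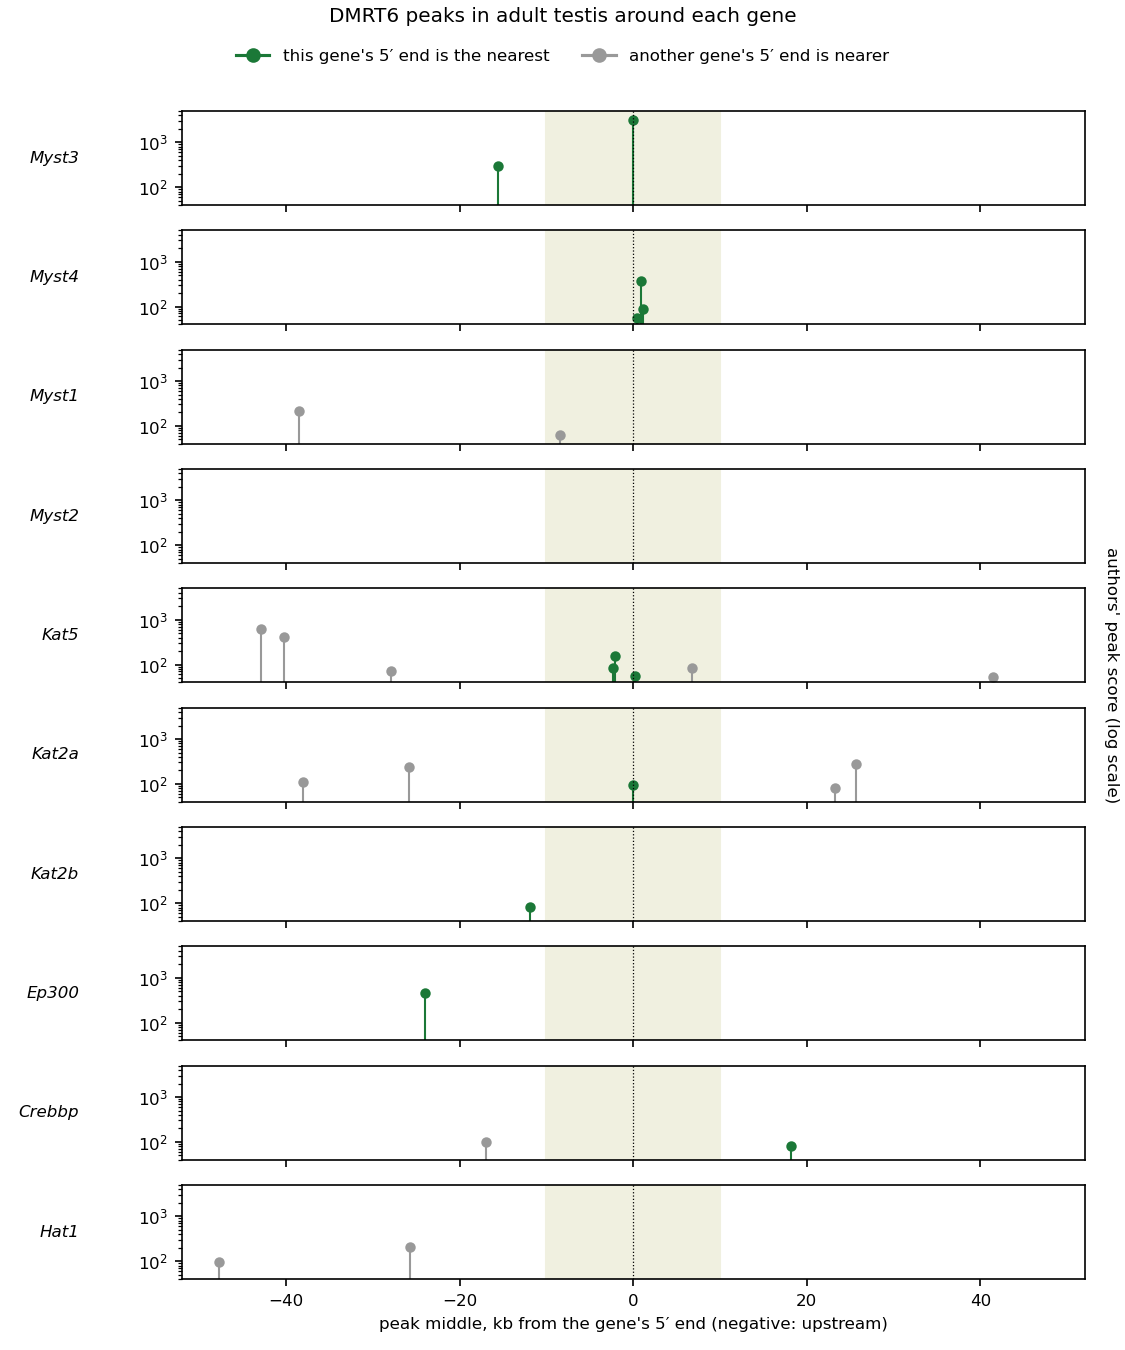
DMRT6 peaks of adult testis within 50 kb of the 5′ end of each histone acetyltransferase gene, 1 panel per gene, with the distance of the peak middle from the 5′ end in kb on the x axis and the authors' score on a log y axis. Green marks peaks whose nearest 5′ end is that gene's, grey those nearer to another gene, and the shaded band is 10 kb to either side; the peak of 3100 at Myst3 stands above every other, and the Myst2 panel is empty.

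Promoter sequences are shown for the genes with a peak near the start, as far as the RefSeq table held them, and for Kat2b as the one window with the core of DMRT sites. They are the 250 bases upstream of RefSeq starts in GRCm38.p6, a different build from that of the peaks, so the place of a peak within them was not established. All 10 genes matched a RefSeq gene by symbol or synonym, and 9 had a promoter there. Capitals mark 6 short motifs searched on both strands, with overlapping matches each counted. They were ACAATGT (the DMRT core), CCGGAAG (bound by ETS factors), TGCGCA (the NRF1 half-site), CCAAT (a box of that name), GGGCGG (the GC box) and TGACG (the cyclic AMP response half-site).
Kat2a, chr11:100712468-100712717, minus strand: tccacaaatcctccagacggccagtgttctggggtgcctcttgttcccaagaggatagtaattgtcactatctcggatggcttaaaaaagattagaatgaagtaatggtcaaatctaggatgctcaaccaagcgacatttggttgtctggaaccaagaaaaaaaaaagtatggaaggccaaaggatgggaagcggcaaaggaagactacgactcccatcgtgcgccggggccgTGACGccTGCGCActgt
Kat5, first of 2 starts, chr19:5610095-5610344, minus strand: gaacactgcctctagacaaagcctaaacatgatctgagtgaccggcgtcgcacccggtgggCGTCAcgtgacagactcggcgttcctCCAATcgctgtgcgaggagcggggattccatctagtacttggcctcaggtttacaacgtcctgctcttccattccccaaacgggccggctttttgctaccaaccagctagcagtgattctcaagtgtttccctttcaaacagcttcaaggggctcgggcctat
Myst4, first of 2 starts, chr14:21499520-21499769, plus strand: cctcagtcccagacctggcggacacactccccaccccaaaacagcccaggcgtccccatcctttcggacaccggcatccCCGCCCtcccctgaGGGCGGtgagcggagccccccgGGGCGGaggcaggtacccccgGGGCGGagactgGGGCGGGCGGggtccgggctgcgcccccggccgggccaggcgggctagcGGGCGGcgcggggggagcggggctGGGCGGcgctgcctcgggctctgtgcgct
Kat2b, second start, chr17:53583876-53584125, plus strand: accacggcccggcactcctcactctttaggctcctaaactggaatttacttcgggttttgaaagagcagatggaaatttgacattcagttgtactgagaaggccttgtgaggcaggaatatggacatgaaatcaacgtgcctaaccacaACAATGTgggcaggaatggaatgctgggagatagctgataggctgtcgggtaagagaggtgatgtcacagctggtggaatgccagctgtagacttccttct

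The windows differed in composition. That of Myst4 was 78.8% G and C and held 8 GC boxes, that of Kat2a was 48.8% and held none, and the median over 32851 RefSeq promoters was 52.4%. A GC box was present in 32.7% of all those promoters. Kat2a held 1 NRF1 half-site and 1 TGACG, which were found in 6.43% and 17.8% of promoters, and the first Kat5 window, 55.2% G and C, held 1 CCAAT and 1 TGACG. The second Kat5 window, not printed, was 71.6% G and C and held 3 GC boxes, 1 TGACG and no CCAAT. The DMRT core stood once in the second Kat2b window and in none of the other 12 windows of members, against 2.56% of all promoters. A match is a description of these letters, and its absence says only that they are not in this window.

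The expression libraries held 26170933, 27369348 and 26321829 reads in null replicates 1, 2 and 3, against 23768316, 29046494 and 27493481 in wild-type replicates 1, 2 and 3. Values are the authors' log2 CPM, that is, reads scaled to a size per library. That size was near, but not equal to, the total of these reads. Dmrtb1, the gene of DMRT6, was at -0.88, -0.13 and 0.03 log2 CPM in null replicates 1, 2 and 3, against 3.03, 4.12 and 3.21 in wild-type replicates 1, 2 and 3, a difference of -3.78 (SE 0.36, limma adjusted p = 0.0516, and 0.0182 without null replicate 3). Markers of spermatogonia were present in every library: the 9 spermatogonial markers summed to 1464 to 1622 CPM in null and 1380 to 1525 CPM in wild type. The sums overlapped, but 7 of the 9 were higher in null. For 3 of the 9, Kit, Sohlh1 and Sohlh2, all null libraries lay above all wild-type libraries, against 5.06% of tested genes. For 0 of the 9 all lay below, against 6.02%. An unadjusted limma p was below 0.05 for 3 of the 9, all higher in null, against 3.47% of tested genes, and 0 were called. All 7 macrophage markers were lower in null, with a median difference of -0.33 (-0.29 without null replicate 3), sums of 92.1 to 128 CPM in null and 105 to 161 CPM in wild type, and 0 called. Spermatid and late spermatocyte markers summed to 3.52 to 4.73 CPM in null and 3.95 to 4.29 CPM in wild type, with the protamine gene Prm1 at 1 to 4 reads. The 5 red blood cell markers summed to 717 to 1255 CPM in null and 1477 to 1776 CPM in wild type, so these sums did not overlap. For 4 of the 5 all null libraries lay below all wild-type libraries, against 6.02% of tested genes. For Alas2 the groups overlapped, and 0 of the 5 were called. The part of these marker lists in the members' differences was not tested. A principal component analysis set null replicate 3 apart, with a first component (44.8% of the variance) of -54.3, where the other 5 libraries lay between -1.68 and 20.2. Differences between the genotypes are therefore also given without it.

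None of the 10 genes passed the threshold between the genotypes (limma-trend, adjusted p over 16634 genes below 0.05), where 0.00601% of tested genes did. At an unadjusted p below 0.05 the count was also 0 of 10, against 3.47% of tested genes, and limma's voom on recovered reads gave 0 by either measure. The smallest adjusted p was 0.755. Differences in log2 CPM, null minus wild type, ranged between -0.18 and 0.44, with 7 genes higher and 3 lower in null. Their median was 0.19, beside 0.01 over all tested genes, and 0.08 without null replicate 3, beside 0.00.

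The Myst3 transcript was at 6.80, 6.67 and 7.47 log2 CPM in null replicates 1, 2 and 3, or 111, 102 and 178 CPM. It was at 6.66, 6.71 and 6.51 in wild-type replicates 1, 2 and 3, or 101, 105 and 90.8 CPM. Null replicate 3 was high, and null replicate 2 fell within the wild-type range, so the groups overlapped. The means were 6.98 ± 0.43 in null and 6.63 ± 0.11 in wild type (SD, n = 3 each), a 1.28-fold difference with a 95% interval of 0.931 to 1.76 (limma adjusted p = 0.755). Without null replicate 3 the difference was 0.11 (SE 0.09), with an interval from -0.11 to 0.33 on the log2 scale. For this gene, which had the highest peak score of the 10, a difference between genotypes was not detectable at P8 with these libraries.

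Myst4 and Ep300 were the members whose libraries did not overlap between genotypes. Myst4 is given here and Ep300 with its relative Crebbp further on. Myst4 was at 6.39, 6.35 and 6.55 log2 CPM in null replicates 1, 2 and 3, against 6.26, 6.27 and 6.22 in wild-type replicates 1, 2 and 3. All 3 null libraries were higher, by a small step: the difference was 0.18 (SE 0.10, limma adjusted p = 0.755) and 0.12 without null replicate 3. All null libraries above all wild-type libraries was found for 2 of the 10 members, against 5.06% of tested genes, and all below for 0, against 6.02%. The p of these genes did not pass, and with 3 libraries against 3 an exact permutation test could not give less than 0.1.

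With all 6 libraries, the differences of the remaining MYST genes were smaller than their standard errors. Myst1 was at 4.92, 5.10 and 4.90 log2 CPM in null replicates 1, 2 and 3, against 4.93, 5.02 and 5.07 in wild-type replicates 1, 2 and 3. The groups overlapped, and the difference was -0.04 with a 95% interval from -0.30 to 0.23, and 0.00 without null replicate 3. Myst2 was at 7.56, 7.38 and 7.36 in null replicates 1, 2 and 3, against 7.56, 7.49 and 7.39 in wild-type replicates 1, 2 and 3. The highest null and the highest wild-type library had the same rounded value, and the difference was -0.04 (-0.27 to 0.18). It was -0.01 without null replicate 3, and with 1 library left out it lay between -0.11 (SE 0.11, null replicate 1 left out) and 0.00 (wild-type replicate 1 left out). Kat5 was at 5.43, 5.24 and 5.35 in null replicates 1, 2 and 3, against 5.30, 5.28 and 5.21 in wild-type replicates 1, 2 and 3, a difference of 0.08 (-0.17 to 0.32). It was 0.07 without null replicate 3. Leaving out null replicate 1 gave 0.03 and leaving out null replicate 2 gave 0.13 (SE 0.12), the lowest and highest with 1 library left out. With array weights, whose estimation did not converge, Kat5 differed by 0.16 (SE 0.06, limma unadjusted p = 0.0257, adjusted p = 0.131). It was 1 of 5 members with an unadjusted p below 0.05 in that fit, where Hat1 had the smallest (limma adjusted p = 0.063). The share of all tested genes below 0.05 in that fit was not computed, so nothing is read from this count. The fit gave null replicate 1, the highest library for Kat5, a weight of 19.3, against 0.153 to 1.46 for the others. On the linear scale, with all 6 libraries, the intervals of Myst1, Myst2 and Kat5 reached down to 0.811-fold (Myst1) and up to 1.25-fold (Kat5).

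Kat2a, the GCN5 gene, had the largest difference of the 10, which was smaller without null replicate 3. It was at 5.68, 5.53 and 6.38 log2 CPM in null replicates 1, 2 and 3, against 5.37, 5.58 and 5.32 in wild-type replicates 1, 2 and 3. Null replicate 2 lay below wild-type replicate 2, and null replicate 3 was above all others. The difference was 0.44 (SE 0.21, limma adjusted p = 0.755) with all libraries and 0.18 (SE 0.11) without null replicate 3. Kat2b, the PCAF gene, was at 5.84, 5.65 and 6.04 in null replicates 1, 2 and 3, against 5.54, 5.70 and 5.70 in wild-type replicates 1, 2 and 3. Null replicate 2 fell within the wild-type range, and the difference was 0.19 (SE 0.13), or 0.10 without null replicate 3.

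In the p300 and CBP genes, too, null replicate 3 was the highest library. Ep300 was at 6.77, 6.82 and 7.30 log2 CPM in null replicates 1, 2 and 3, against 6.71, 6.69 and 6.73 in wild-type replicates 1, 2 and 3. The null libraries were all higher, and their SD of 0.29 was 16.4 times the wild-type SD of 0.02 (n = 3 each). The difference was 0.26 (SE 0.14, limma adjusted p = 0.755), and 0.09 without null replicate 3. Crebbp was at 5.99, 5.93 and 6.73 in null replicates 1, 2 and 3, against 5.98, 5.82 and 5.94 in wild-type replicates 1, 2 and 3. Its groups overlapped, and its difference of 0.30 (SE 0.20) came to 0.05 (SE 0.09) without null replicate 3.

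Hat1 was the member farthest to the other side. It was at 7.18, 7.34 and 7.11 log2 CPM in null replicates 1, 2 and 3, against 7.33, 7.41 and 7.44 in wild-type replicates 1, 2 and 3. A single wild-type library, replicate 1, lay below the highest null library, so the groups just overlapped. The difference was -0.18 with a 95% interval from -0.40 to 0.04 (limma adjusted p = 0.755), and -0.13 without null replicate 3.

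**Figure D2:**
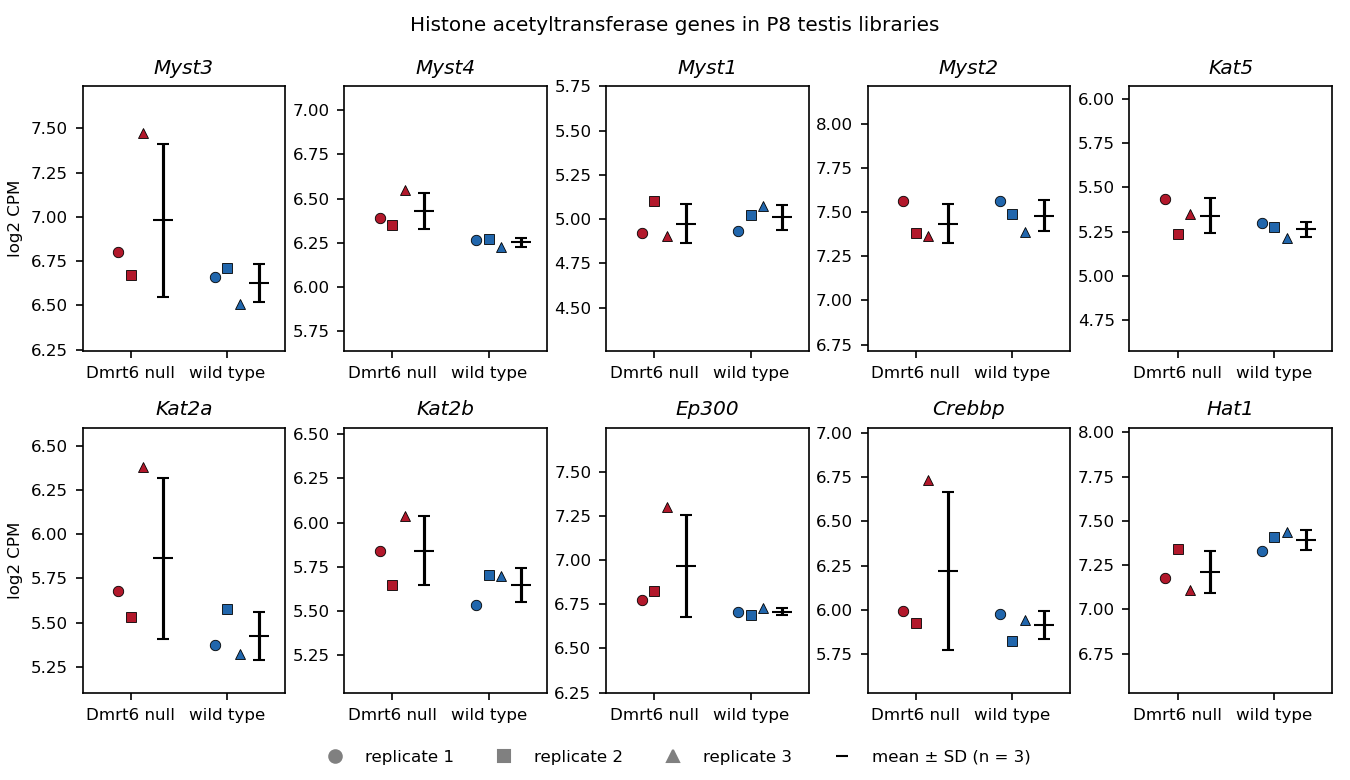
Levels of the 10 histone acetyltransferase genes in log2 CPM (y axis, the same span of 1.5 log2 units in each panel but not starting at 0) in the 3 Dmrt6 null libraries (red, left) and the 3 wild-type libraries (blue, right); symbols give the replicate number and bars the mean ± SD (n = 3). In Myst3, Kat2a, Ep300 and Crebbp the null replicate 3 triangle stands apart from the other 5 libraries, for instance at 7.47 in Myst3.

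**Figure D3:**
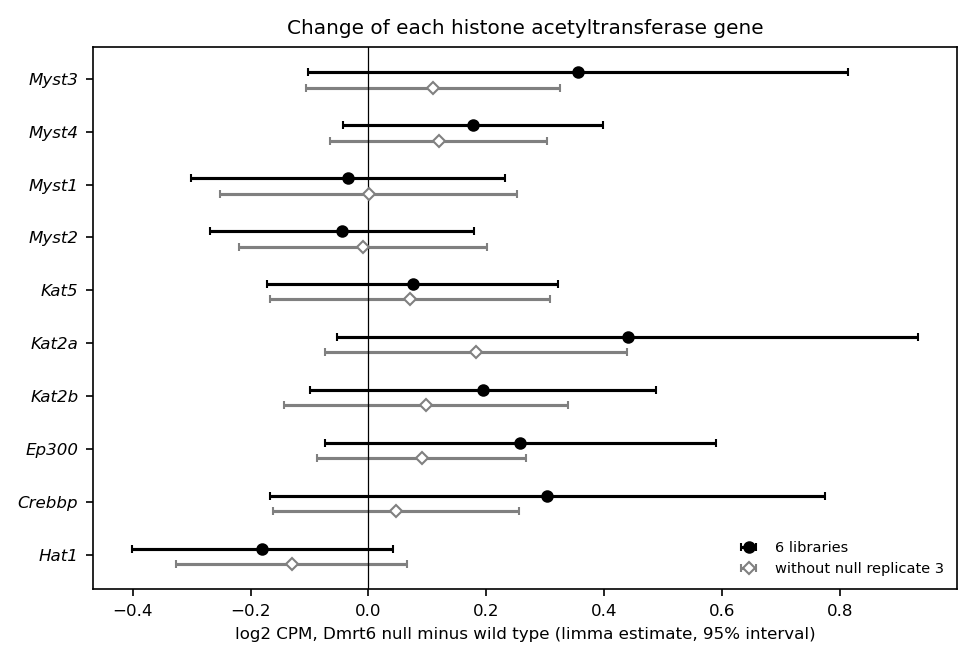
Difference in log2 CPM, Dmrt6 null minus wild type, for each gene, with limma's estimate and its 95% interval from all 6 libraries (black circles) and without null replicate 3 (open diamonds). Every interval includes 0, and the estimate for Kat2a moves to 0.18 without that library, against 0.44 with it.

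Null replicate 3 was the highest of the 6 libraries for 6 of the 10 genes, where it was the highest for 34.5% of all tested genes. It was the lowest for 3 of the 10 (Myst1, Myst2 and Hat1), where that held for 34.0% of tested genes. Its distance from the median of the other 5 libraries was 0.85 for Kat2a, 0.80 for Myst3, 0.79 for Crebbp and 0.57 for Ep300, in log2 units. These values exceeded those of 91.3%, 90.1%, 89.7% and 82.3% of tested genes in the same order. The distance was -0.23 for Hat1. The deviations of the members were thus large but inside the spread of this library over all genes, where the 5th and 95th percentiles were -0.61 and 1.01.

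The deviation of that library differed between the longest and the shortest genes. With tested genes put in 5 equal groups by span, it was the highest library for 42.9% of the group with the longest span (from 63.2 kb) and for 18.7% of that with the shortest (to 4.44 kb). Its median deviation was 0.10 in the longest group and -0.21 in the shortest, and lay between -0.001 and 0.015 in the groups between them. Of the 6 members for which it was highest, 5 were in the longest group (Myst3, Myst4, Kat2b, Ep300 and Crebbp), whereas Kat2a spans 7.72 kb. Among marker lists, null replicate 3 was the highest library for 6 of the 9 spermatogonial markers, whose sum there, 1622 CPM, was the highest of the 6 libraries. It was also the highest for 4 of the 6 Sertoli cell markers, whose sum there, 2490 CPM, lay below that of null replicate 1, 2539 CPM. It was the lowest library for all 5 red blood cell markers and for 5 of the 7 macrophage markers, with sums of 717 and 92.1 CPM. Of 6 Leydig, 4 peritubular and 4 endothelial cell markers it was the highest library for 0, 0 and 1. It was the lowest for 2, 1 and 2 of them in the same order. The 1 tested marker of spermatids and late spermatocytes was highest in null replicate 3. The part of gene span or of cell makeup in the members' values was not tested.

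**Figure D4:**
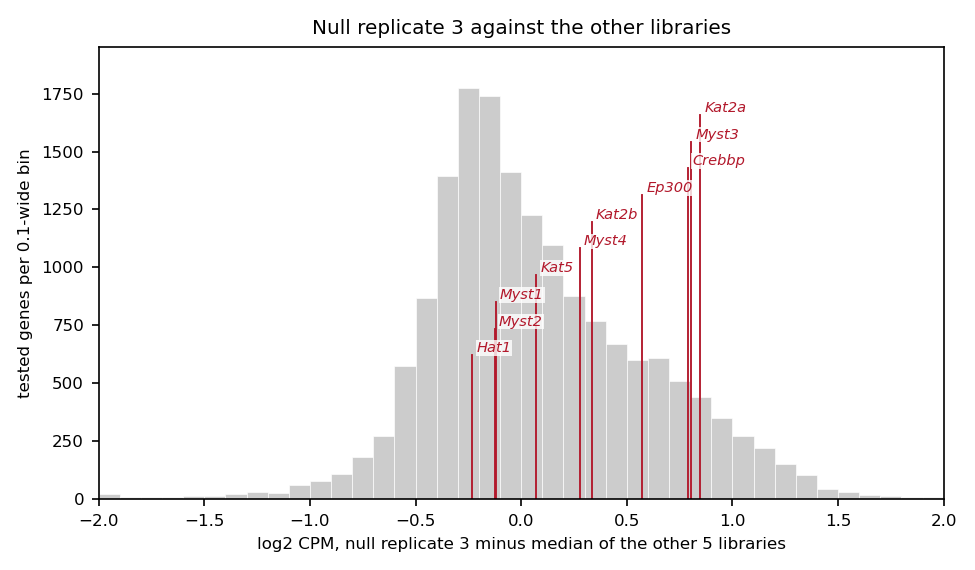
Histogram of the log2 CPM of null replicate 3 minus the median of the other 5 libraries over the tested genes (y axis, genes per bin; the end bins also hold genes beyond the axis), with the 10 members as red lines whose height has no meaning. The members run between -0.23 for Hat1 and 0.85 for Kat2a, within the body and the right shoulder of the distribution.

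The gap between close relatives was also compared across libraries, without a test. Myst3 exceeded Myst4 by 0.41, 0.32 and 0.93 log2 units in null replicates 1, 2 and 3, against 0.40, 0.44 and 0.28 in wild-type replicates 1, 2 and 3. These gaps include the lengths of the transcripts, which were not corrected for, so their change between libraries can be read but not their size. Kat2a minus Kat2b was -0.16, -0.12 and 0.34 in null replicates 1, 2 and 3, against -0.16, -0.13 and -0.38 in wild-type replicates 1, 2 and 3. In both of these pairs the gap was widest upward in null replicate 3. The third pair went the other way. Ep300 minus Crebbp was 0.78, 0.90 and 0.57 in null replicates 1, 2 and 3. It was 0.73, 0.87 and 0.78 in wild-type replicates 1, 2 and 3, so null replicate 3 was the lowest library there. The means of this pair were 0.75 ± 0.17 in null and 0.79 ± 0.07 in wild type (SD, n = 3 each).

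The genes whose profile over the 6 libraries was closest to that of Myst3, each centred on its own mean, were Prpf8, Pip4k2c and Ppp1r13b. Prpf8 encodes a core protein of the spliceosome, Pip4k2c a phosphoinositide kinase and Ppp1r13b a protein that binds p53. Their root mean square difference from Myst3 was 0.03 log2 units each, where the median over tested genes was 0.36. Pip4k2c was at 5.52, 5.35 and 6.15 log2 CPM in null replicates 1, 2 and 3, against 5.43, 5.45 and 5.23 in wild-type replicates 1, 2 and 3. As in Myst3, null replicate 3 was the highest and wild-type replicate 3 the lowest, which follows from choosing the gene by its likeness over these libraries. Within the family the closest were Kat2a at 0.06 and Crebbp at 0.10, and the farthest was Hat1 at 0.42.

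Partner subunits and opposing enzymes were described from lists by their counts beside the background of 0.00601% of genes called. Of the 19 subunits of the MYST complexes 0 were called, 14 were higher and 5 lower in null, and the median difference was 0.11 (0.02 without null replicate 3). Brd1, a BRPF-like scaffold, differed by 0.45 (SE 0.22) and Msl1, a scaffold of the MOF complex, by 0.37 (SE 0.20), or by 0.17 and 0.12 without that library. The gene listed as 4632411B12Rik differed by 0.39 (SE 0.20), or by 0.15 without that library. Each of them had a peak within 10 kb. The nearest lay 1279 bp from the 5′ end of Brd1, 42 bp from that of 4632411B12Rik and 166 bp from that of Msl1. A peak within 10 kb was found for 10 of the 19 genes and one within 1 kb for 6, beside the 31.2% and 16.0% of all tested genes given above.

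Of the 15 matched TIP60 complex subunits (16 were listed) 0 were called. In null 6 were higher and 9 lower, and the median was -0.05, which was 0.03 without null replicate 3. Morf4l1, a chromodomain subunit, was at 7.77, 7.80 and 7.57 log2 CPM in null replicates 1, 2 and 3, against 7.94, 7.91 and 7.92 in wild-type replicates 1, 2 and 3. All 3 null libraries were lower, with a difference of -0.22 (SE 0.09, limma adjusted p = 0.755) that was -0.14 without null replicate 3, and a peak middle lay 30 bp from its 5′ end. All null libraries below all wild-type ones held for 1 of the 15 genes, against 6.02% of tested genes, and all above for 0, against 5.06%. The scaffold gene Trrap, shared with SAGA, stood at 9.15 in null replicate 3, against 8.28 and 8.05 in null replicates 1 and 2 and 7.96 to 8.12 in wild type. Its difference of 0.46 (SE 0.25) came to 0.13 without that library, and its nearest peak lay 4971 bp from its 5′ end. A peak within 10 kb was found for 5 of the 15 genes and within 1 kb for 4, against 31.2% and 16.0% of tested genes.

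Of the 19 SAGA and ATAC subunits 0 were called, with 12 higher, 7 lower and a median of 0.04 (0.03 without null replicate 3). Taf5l, a subunit of SAGA, differed by 0.25 (SE 0.11) and Yeats2, a reader of acetylated histones in ATAC, by 0.22 (SE 0.10). In both all 3 null libraries lay above all wild-type ones. That held for 2 of the 19 genes, against 5.06% of tested genes, and all below for 1, against 6.02%. Without null replicate 3 the differences of Taf5l and Yeats2 were 0.15 and 0.14. The middle of a peak lay 3 bp from the 5′ end of Taf5l and 253 bp from that of Yeats2. A peak within 10 kb was present for 12 of the 19 genes and within 1 kb for 8, against 31.2% and 16.0% of tested genes. The 8 partners of p300, CBP and HAT1 had 7 higher and a median of 0.15 (0.03 without null replicate 3), and 0 were called. Cited4, which encodes a small protein that binds p300 and CBP, had the largest difference there, 1.06 (SE 0.38, adjusted p = 0.755 in limma), at a low level of 0.97 ± 0.40 in null and -0.09 ± 0.62 log2 CPM in wild type (SD, n = 3 each). Without null replicate 3 it was 0.84, and the nearest peak lay 30.5 kb from the 5′ end of Cited4. Of these 8 genes 1 had a peak within 10 kb, and it was also within 1 kb. Among 9 other proteins reported as acetyltransferases 7 were higher and 0 were called, with Mcm3ap at 0.32 (SE 0.20), or 0.07 without null replicate 3. The median was 0.09 (0.04 without that library), and 4 of the 9 had a peak within 10 kb and 3 within 1 kb. The peak nearest to Mcm3ap lay 9487 bp from its 5′ end.

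The histone deacetylases and sirtuins filled 17 rows of the table, since Hdac4 has 2, with 12 higher, 5 lower, a median of 0.08 (0.00 without null replicate 3) and 0 called. Hdac6, which deacetylates tubulin, was at 8.14, 7.91 and 8.68 log2 CPM in null replicates 1, 2 and 3, against 7.69, 7.97 and 7.72 in wild-type replicates 1, 2 and 3. Null replicate 2 lay below wild-type replicate 2, and the difference of 0.45 (SE 0.19) came to 0.23 without null replicate 3. Hdac9 was lower in all 3 null libraries, with a difference of -0.32 (SE 0.17) that was -0.33 without null replicate 3. The nearest peak lay 124 kb from the 5′ end of Hdac6 and 115 kb from that of Hdac9. All null libraries below all wild-type ones held for 2 of the 17 rows, against 6.02% of tested genes, and all above for 0, against 5.06%. A peak within 10 kb was found for 8 of the 17 deacetylase rows and within 1 kb for 0, against 31.2% and 16.0% of tested genes.

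Of the 4 BET genes, whose proteins read acetylated histones, 3 were higher with a median of 0.30, which was -0.01 without null replicate 3, and 0 were called. Brd2 was at 7.79, 7.62 and 8.51 log2 CPM in null replicates 1, 2 and 3, against 7.54, 7.68 and 7.49 in wild-type replicates 1, 2 and 3, and it had 6 peaks within 10 kb, the nearest 6 bp from its 5′ end. Its difference of 0.40 (SE 0.21) came to 0.13 without null replicate 3. Brd2 was the one BET gene with a peak within 10 kb, against 31.2% of tested genes. The 4 genes of acetyl-CoA supply were all higher, with a median of 0.26 that was 0.08 without null replicate 3, and 0 were called. Acly, which encodes ATP citrate lyase, differed by 0.27 (SE 0.17), or by 0.08 without that library, and its nearest peak lay 78 bp from its 5′ end. Of these 4 genes 2 had a peak within 10 kb and 1 within 1 kb, against 31.2% and 16.0% of tested genes.

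Binding and expression were then set side by side for the 10 genes. The 4 with a peak within 1 kb (Myst3, Kat2a, Kat5 and Myst4) had differences between 0.08 and 0.44, and the 6 without one between -0.18 and 0.30. Without null replicate 3 the ranges were 0.07 to 0.18 with a peak and -0.13 to 0.10 without one. The ranges overlapped both ways, none of the 10 passed the threshold, and the binding was measured in adult testis and the transcripts at P8. Bckdk, with a peak 38 bp from its 5′ end, averaged 5.84 log2 CPM in null and 5.93 log2 CPM in wild type (n = 3 each), a difference of -0.09 (SE 0.10, limma adjusted p = 0.766) that was the same to 2 decimals without null replicate 3. The genes next to peaks around Kat5 differed by -0.25 (Rnaseh2c, SE 0.13), 0.43 (Rela, SE 0.29) and 0.30 (Sipa1, SE 0.24), each with an adjusted p of 0.755 in limma. Without null replicate 3 these were -0.21 (Rnaseh2c), 0.09 (Rela) and -0.01 (Sipa1), so that of Sipa1 changed sign. Ap3m2, the neighbour of Myst3, differed by 0.09 (SE 0.13), or by 0.03 without that library.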

How the data were processed

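RNA was measured in 6 whole-testis libraries at P8 (3 Dmrt6 null, 3 wild type) and DMRT6 binding in 1 ChIP and 1 input library. The authors deposited log2 CPM per gene and a peak list with a score per peak whose scale no header states. Per the labels, the peak list came from MACS 1.4 after removal of duplicates. Per the submitters' processing notes, STAR 2.3.0e, Bowtie2, Picard, edgeR and mm9 were used, with no roles named, and neither read counter nor strand setting is given in the sources used here. Whole reads were recovered from the steps of the CPM (100% whole at a tolerance of 0.01 reads). Genes with a mean of at least 0 log2 CPM over the 6 libraries (16634) were tested with limma-trend (limma 3.58.1, R 4.3.3), genotype as the only term, Benjamini-Hochberg adjustment over all of them, threshold 0.05, no pseudocount beyond the authors' own. The step was tested on simulated data. All 10 members passed the filter. The replicates are called biological in the design text; p-values measure the spread between these libraries. A peak counted by its middle within 10 kb (also 1 and 50 kb) of the 5′ end. All 10 members are named; of each other list up to 3 genes of smallest p, and for Myst3 the 3 genes of closest profile. Members and lists were chosen with earlier results of these data known. Alternatives were filters, normalizations, tests, peak settings and each library left out.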

Additional observations from a re-analysis of the deposited data

How the results depend on the processing

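Over the 15 alternative fits 0 of the 10 genes passed the threshold in any, and 148 gene estimates kept their direction and their side of the threshold while 2 turned. These were Myst2, at 0.080 with array weights (whose estimation stopped before convergence), and Myst1, at 8.9e-05 without null replicate 3 and from -0.098 when other libraries were left out; the cause was not tested. The median difference over the 10 genes ranged from 0.08 to 0.25 over the libraries left out, and was 0.14 with quantile normalization or median centring. Genes called in the whole table numbered 136 with array weights, 5 without null replicate 3, 3 with median centring or without a filter, 2 with quantile normalization, without wild-type replicate 2 or with the replicate block, and 0 at a mean of at least 2 log2 CPM or without null replicate 1, against 1. Unadjusted p was below 0.05 for 5 members with array weights and for 4 without null replicate 2. The share of all tested genes below 0.05 in these fits was not computed, so nothing is read from these counts. The 3.47% given above belongs to the main fit. With the replicate number as a block the median was 0.19 and 0 members were called. Deviations of same-numbered libraries were not positively correlated (correlations -0.09, -0.22 and -0.04). Of 6 libraries 0 correlated best with their own number. No pairing by number was seen, but with 3 libraries per group this check cannot exclude one. The number of members with a peak, 5, was 9 within 50 kb, 3 at a score of at least 100 and 2 at 200; these follow from the wider window or the fewer peaks.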
